A study of Mus musculus with 6 samples.

Results

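The genes examined here are the protein-coding neighbours of Grn, the gene for progranulin (PGRN), compared between macrophages that lack PGRN (PGRN KO) and wild type (WT) macrophages of the mouse. They were taken by position alone, as the protein-coding genes of chromosome 11 that start between 101 and 104.5 Mb, leaving out Grn itself (102430315 to 102437048). This gave 102 of the 54532 genes in the table, 61 at lower and 41 at higher coordinates than Grn. Coordinates are those of the deposited table, on GRCm38, and all of these genes had the same start and end in the GENCODE M21 annotation.

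Both groups are labelled as C57BL/6J mice. Their macrophages, given in the labels as peritoneal, were plated at 2000000 cells per well and exposed for 6 hours to live Candida albicans, with 1 fungal cell for each macrophage. There were 3 WT libraries (replicates 1, 2 and 3) and 3 PGRN KO libraries (replicates 4, 5 and 6), with no unexposed cells. The sources used here do not say whether the libraries came from separate animals, so that p-values measure only the spread between these libraries. The study's methods give a commercial breeder as the source of the PGRN KO mice and a university as that of the WT mice, and the paper describes bone marrow-derived macrophages and another ratio of fungus to cells. The labels were followed for both. Effects of the missing protein, of DNA carried along with the allele and of colony cannot be told apart in this design.

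Genes next to a targeted gene are of interest for a reason of mouse genetics. A null allele is usually made in embryonic stem cells and then crossed to the strain of the controls, and recombination close to the target is rare, so that neighbours can keep the DNA of the stem cell strain for many generations. The sources used here do not name the strain of the stem cells. The stretch around Grn is dense in genes of unrelated function, among them lysosomal enzymes, autophagy adaptors, chromatin regulators, splicing factors and mitochondrial carriers, next to genes of neurons, bone, gut and blood.

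Sequence before a RefSeq start of 4 of these genes is shown, as listed for GRCm38.p6. They are the nearest tested neighbour of Grn (Slc25a39), the largest rise (Naglu), the largest fall (Kansl1) and a tested gene with the CLEAR box core (Mlx). Each run is the 250 bases before a RefSeq start, 5′ to 3′ on the strand of the gene, and the capitals mark TCACGTGA, the core of the CLEAR box bound by TFEB and its relatives, which regulate lysosomal genes. The stretches are chr11:102407518-102407767 on the minus strand, chr11:101069844-101070093 on the plus strand, chr11:104469444-104469693 on the minus strand and chr11:101087040-101087289 on the plus strand. RefSeq lists 3 starts for Kansl1, of which 1 is shown. In the order given, the RefSeq starts lie 429, 82, 582 and 13 bases from the 5′ ends of the deposited gene models. The Slc25a39 stretch lies within its deposited model, and those of Naglu and Mlx reach into theirs.
Slc25a39: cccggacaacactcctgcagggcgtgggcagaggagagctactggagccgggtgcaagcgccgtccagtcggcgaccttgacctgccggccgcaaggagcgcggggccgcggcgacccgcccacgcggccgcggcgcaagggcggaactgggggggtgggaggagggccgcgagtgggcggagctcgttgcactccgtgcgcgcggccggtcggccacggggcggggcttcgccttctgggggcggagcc
Naglu: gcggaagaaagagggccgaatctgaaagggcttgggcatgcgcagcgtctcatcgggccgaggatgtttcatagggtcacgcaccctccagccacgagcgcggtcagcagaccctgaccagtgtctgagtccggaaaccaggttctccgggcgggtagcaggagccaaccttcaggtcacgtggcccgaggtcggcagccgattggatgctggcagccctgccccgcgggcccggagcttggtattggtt
Kansl1: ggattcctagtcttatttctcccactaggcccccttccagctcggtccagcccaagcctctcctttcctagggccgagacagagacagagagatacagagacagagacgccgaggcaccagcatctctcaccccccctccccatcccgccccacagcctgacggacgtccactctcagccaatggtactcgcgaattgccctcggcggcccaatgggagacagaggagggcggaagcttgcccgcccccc
Mlx: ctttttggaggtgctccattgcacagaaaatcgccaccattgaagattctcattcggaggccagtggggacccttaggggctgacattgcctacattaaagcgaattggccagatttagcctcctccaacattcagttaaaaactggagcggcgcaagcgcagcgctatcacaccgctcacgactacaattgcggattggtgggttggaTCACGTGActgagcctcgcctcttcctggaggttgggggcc
RefSeq promoters were found for 69 of the 102 genes. Searched on both strands, TCACGTGA occurred before 1 of these 69 genes (1.45%), Mlx, and before 0.91% of all 27025 genes listed. The core of the interferon-stimulated response element, searched as GAAA, any 2 bases and GAAA again, occurred before 3 of the 69 (4.35%), Gosr2, Itga2b and Plcd3, and before 3.46% of all genes listed. These are exact matches of letters only. Near matches were not counted, such as TCACGTGG in the Naglu stretch, which differs from TCACGTGA in its last base.

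The libraries held 15996786 to 17551619 counted fragments. Grn was at 323, 337 and 325 FPKM (fragments scaled by the length of the gene model and the size of the library) in WT replicates 1, 2 and 3, and at 0.0166, 0 and 0.0167 FPKM in the PGRN KO libraries, so that the targeted gene followed the labels. Of 8 macrophage markers, 7 were present in all libraries, and Timd4 was at or below 0.204 FPKM. Gata6, a factor of resident peritoneal macrophages, was at 3.78 to 5.07 FPKM, and its groups overlapped, as did those of Cd68 and Adgre1. Lyz2 (5657 to 5851 FPKM in WT and 5873 to 8135 FPKM in PGRN KO) and Mertk (1.14 to 1.56 and 2.91 to 3.84 FPKM) were higher in PGRN KO. Itgam (49.9 to 50.6 and 41.3 to 45.1 FPKM) and Csf1r were lower, also without overlap of the groups. Markers of B cells (3) summed to 1.01 to 1.76 FPKM in WT and to 4.85 to 6.34 FPKM in PGRN KO. Those of mast cells (3) summed to 0.546 to 0.918 and 1.79 to 2.09 FPKM, but they did not move together. Cpa3 (0.329 to 0.401 and 1.26 to 1.41 FPKM) and Mcpt4 were higher in PGRN KO. Kit was at 0.218 to 0.423 FPKM in WT and at 0.13 to 0.343 FPKM in PGRN KO, with overlapping groups. Markers of T cells (3) summed to 1.73 to 2.57 and 1.99 to 4.16 FPKM, and those of neutrophils (4, almost all S100a8, with Ly6g at 0) to 48.8 to 53.0 and 21.4 to 25.9 FPKM. Erythroid markers (3) stayed at or below 0.160 FPKM and mesothelial markers (3) at or below 0.319 FPKM, and platelet markers (3, almost all Pf4) were at 53.0 to 61.3 and 46.7 to 71.0 FPKM. The part of other cells in the results was not tested, and in bulk RNA fewer cells of a type and less RNA per cell cannot be told apart.

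PGRN KO replicate 6 stood apart from the other libraries, among the neighbours of Grn as well. Across the 42 neighbours tested, its log2(FPKM + 1) value relative to the gene mean fell with gene length (Spearman's correlation -0.58, a description across genes that share the library). The correlation was 0.01 and -0.15 in replicates 4 and 5 and 0.35 to 0.42 in WT. Over all genes tested it was -0.471 in replicate 6, 0.151 and 0.188 in replicates 4 and 5, and 0.154 to 0.243 in WT. The gene mean includes replicate 6, so that its trend also enters the values of the other libraries. Replicate 6 held the highest or the lowest value of all 6 libraries for 29 of the 42 genes, whereas each other library did so for 7 to 17. Single genes are given without it where that changed a call or moved a fold change by much.

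Of the 102 genes, 42 reached a mean of 1 FPKM over the 6 libraries and were tested, 28 at lower and 14 at higher coordinates. Another 39 were above 0 in some library but below this mean, and 21 were at 0 in all 6 libraries. The tested genes had a median level of 8.73 FPKM and a median of 551.5 fragments per library. Vat1, which encodes a membrane protein first found in synaptic vesicles, and Rpl27, a protein of the large ribosomal subunit, were the only neighbours with a mean above 100 FPKM. None of 16 genes listed for other tissues, such as Gfap of astrocytes and Sost of bone, reached the level for testing.

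Genotypes were compared with limma on log2(FPKM + 1) over all 8882 genes of the table that reached the same level, with Benjamini-Hochberg adjustment over all of them. Naglu, Dcakd, Slc25a39, Tmem106a, G6pc3 and Ubtf were higher in PGRN KO at an adjusted p under 0.05, and Dusp3, Plekhm1 and Kansl1 were lower. These are 9 of the 42 neighbours (21.4%), beside 24.2% of all genes tested. Over both directions, the share among neighbours was thus near that of the whole table. By direction, 6 of the 42 were higher and 3 lower, beside 921 higher (10.4%) and 1230 lower (13.8%) of all 8882. More calls were thus higher than lower among neighbours, and the reverse held over all genes. This contrast was not tested. The median absolute log2 fold change was 0.255 for the 42 neighbours, 0.251 for all genes tested and 0.259 for the 650 tested protein-coding genes of the rest of chromosome 11, of which 26.6% passed. The WT and PGRN KO values did not overlap for 26 of the 42 neighbours (61.9%), against 48.8% of all genes tested. On a TPM scale, where every library has the same sum, 6 neighbours were called higher and 1 lower.

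The number of neighbours called depended on the libraries and settings, and each count stands beside the share of all genes. With WT replicate 1 left out, 2 of 42 neighbours passed (4.76%, beside 8.03% of all genes), 2 of them higher (beside 3.73%) and 0 lower (beside 4.3%). With WT replicate 2 left out, 4 of 42 neighbours passed (9.52%, beside 9.63% of all genes), 3 of them higher (beside 4.64%) and 1 lower (beside 4.99%). With WT replicate 3 left out, 2 of 42 neighbours passed (4.76%, beside 9.94% of all genes), 2 of them higher (beside 4.47%) and 0 lower (beside 5.47%). The counts were less changed by leaving out a PGRN KO library other than replicate 6. With PGRN KO replicate 4 left out, 7 of 42 neighbours passed (16.7%, beside 15.6% of all genes), 5 of them higher (beside 6.87%) and 2 lower (beside 8.78%). With PGRN KO replicate 5 left out, 8 of 42 neighbours passed (19%, beside 18% of all genes), 5 of them higher (beside 8.32%) and 3 lower (beside 9.71%). With PGRN KO replicate 6 left out, 17 of 42 neighbours passed (40.5%, beside 41.3% of all genes), 8 of them higher (beside 16.2%) and 9 lower (beside 25.1%). With no filter on low values, 4 of 81 neighbours passed (4.94%, beside 5.96% of all genes), 3 of them higher (beside 2.63%) and 1 lower (beside 3.33%). On a TPM scale, 7 of 42 neighbours passed (16.7%, beside 17.2% of all genes), 6 of them higher (beside 10.4%) and 1 lower (beside 6.83%). After quantile normalization, 8 of 42 neighbours passed (19%, beside 24.6% of all genes), 6 of them higher (beside 12%) and 2 lower (beside 12.5%). Sample quality weights, which gave replicate 6 a weight of 0.0899 and the others 1.07 to 3.79, raised the calls the most, and with them 22 of 42 neighbours passed (52.4%, beside 47.6% of all genes), 12 of them higher (beside 19.8%) and 10 lower (beside 27.8%). Naglu and Dcakd passed under each of the 16 alternatives.

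**Figure D1:**
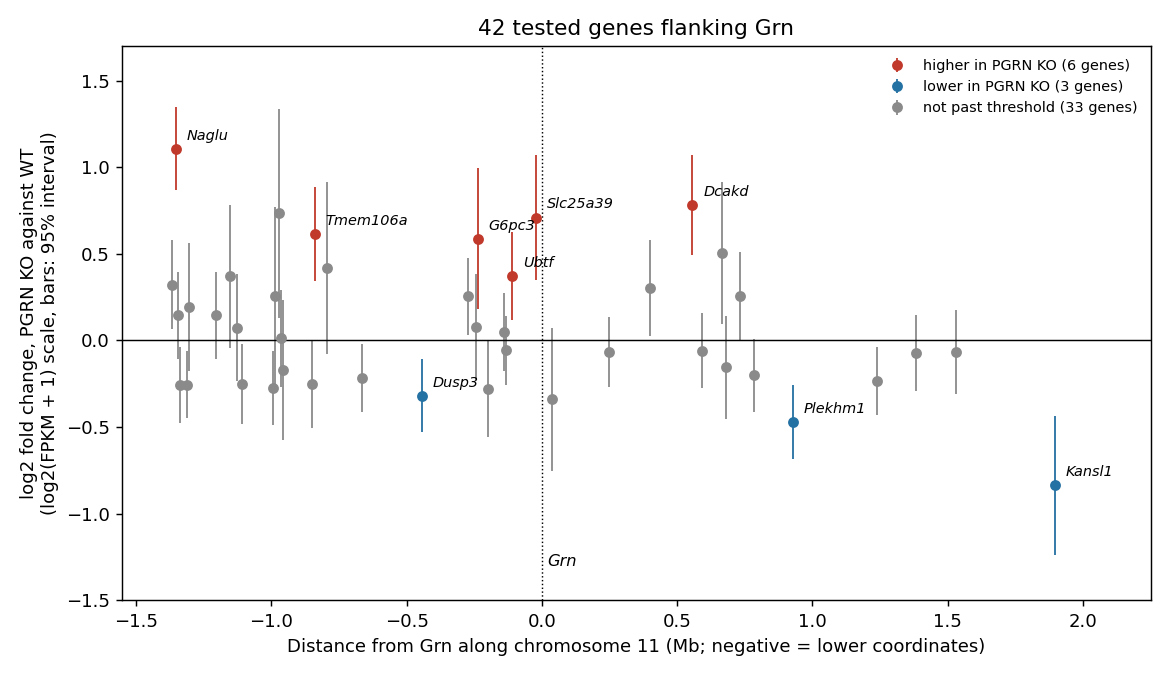
The log2 fold change (PGRN KO against WT, log2(FPKM + 1) scale) of the 42 tested neighbours is plotted against their distance from Grn in Mb, with 95% intervals from limma, and the 6 higher and 3 lower genes are coloured. Called genes lie at all distances, from Slc25a39 at 22.4 kb to Kansl1 at 1896.2 kb.

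The genes that border Grn were examined first. At lower coordinates the nearest protein-coding gene is Slc25a39, 22.4 kb away, which encodes a carrier that brings glutathione into mitochondria. It was at 10.5, 12.3 and 11.5 FPKM in WT and at 16.3, 18.0 and 24.3 FPKM in the PGRN KO libraries, replicates 4, 5 and 6. All 3 PGRN KO libraries lay above all WT libraries, and replicate 6 was the highest. The log2 fold change was 0.71 ± 0.15 (SE, limma adjusted p 0.0183), and the mean was 1.71 times that of WT. It passed in 12 of 16 alternatives, with a log2 fold change of 0.55 to 0.82. The call was lost without WT replicate 1, 2 or 3 (limma adjusted p 0.0811, 0.0559 and 0.0664) and without a filter on low values (0.0547).

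Beyond Slc25a39, Rundc3a, a gene of neurons, was at 0.0460 to 0.142 FPKM in WT and at 0.0785 to 0.177 FPKM in PGRN KO, and Slc4a1, the anion exchanger of red cells, was at 0 in all libraries. Ubtf, 110.6 kb from Grn, encodes the factor that directs RNA polymerase I to ribosomal RNA genes. It was at 2.31, 2.23 and 2.50 FPKM in WT and at 2.96, 3.20 and 3.87 FPKM in PGRN KO, so that the groups did not overlap. Its log2 fold change was 0.37 ± 0.11 (SE, limma adjusted p 0.0453), just under the threshold. It passed in 7 of 15 alternatives, and the call was lost without any 1 of the libraries other than PGRN KO replicate 6 (limma adjusted p 0.0546 to 0.15), on a TPM scale (0.0544), after quantile normalization (0.0569) and without a filter (0.108). Atxn7l3, a subunit of the deubiquitinase module of the SAGA coactivator, 133.7 kb from Grn, was at 10.6 ± 0.324 FPKM in WT and at 10.2 ± 0.577 FPKM in PGRN KO (SD, n = 3 each). Its groups overlapped, with a 95% interval of the log2 fold change from -0.26 to 0.14.

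On the other side, Fam171a2 overlaps the end of Grn on the opposite strand. Only 2 fragments were counted for it in all 6 libraries, beside 56466 for Grn in WT. Itga2b, the platelet integrin chain, was at 0.0658 to 0.149 FPKM in WT and at 0.138 to 0.265 FPKM in PGRN KO and was not tested. Gpatch8, 38.9 kb away, whose protein carries the G-patch domain of RNA-binding proteins, was the nearest tested gene on this side. It was at 4.07, 4.25 and 4.0 FPKM in WT and at 3.45, 3.84 and 2.04 FPKM in PGRN KO. The groups did not overlap, but replicate 6 lay far below replicates 4 and 5, and the log2 fold change of -0.34 ± 0.17 (SE) did not pass (limma adjusted p 0.192). Without replicate 6 it was -0.14. Farther out, Gm11627 was at 0 in all libraries, and Fzd2, a Wnt receptor, had 2 fragments in all.

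**Figure D2:**
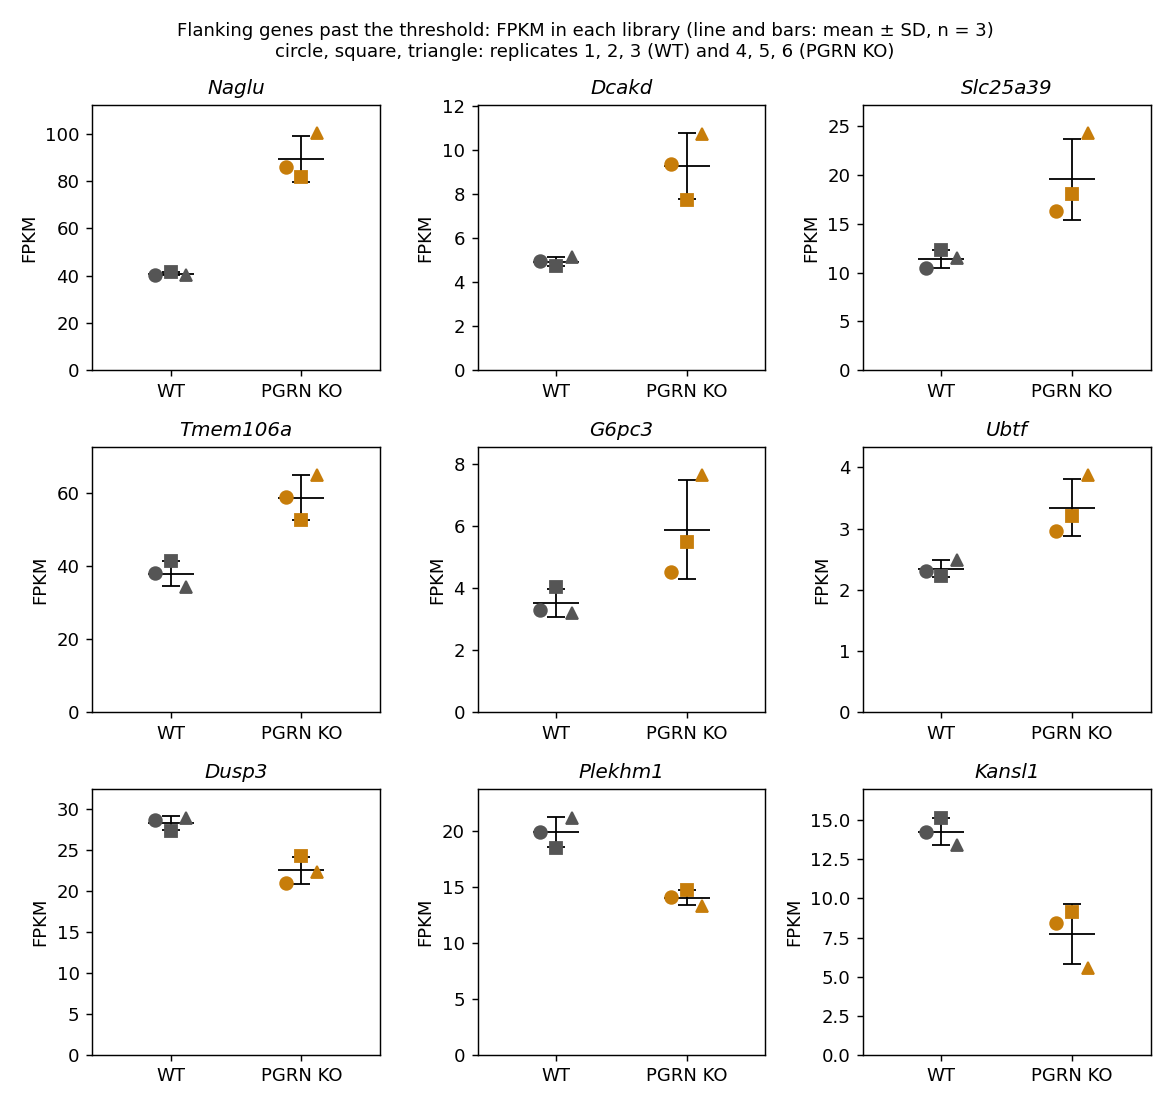
FPKM of the 9 neighbours of Grn past the threshold is plotted for each library of WT and PGRN KO, with the mean and SD (n = 3 each). The groups do not overlap for any of the 9, and replicate 6 is the highest PGRN KO library in all 6 higher genes and the lowest in Plekhm1 and Kansl1.

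Progranulin is a protein of the lysosome, and 9 genes of the stretch were listed for lysosome and autophagy, of which 8 were tested. Naglu and Tmem106a were higher, Plekhm1 was lower, and 5 did not pass, beside 10.4% higher and 13.8% lower among all genes tested. Retreg3, an autophagy receptor described further on, was not on this list. Naglu, 1352.6 kb from Grn, encodes the lysosomal enzyme that removes N-acetylglucosamine from heparan sulfate. It was at 40.3, 41.4 and 40.4 FPKM in WT and at 85.9, 81.5 and 100.2 FPKM in PGRN KO. The WT libraries were close to each other, and every PGRN KO library lay far above them. The log2 fold change was 1.11 ± 0.10 (SE, limma adjusted p 0.00142), and the mean was 2.19 times that of WT. It passed in 16 of 16 alternatives, with a log2 fold change of 1.02 to 1.17.

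Tmem106a, a transmembrane protein gene 838.5 kb from Grn, was at 38.2, 41.3 and 34.3 FPKM in WT and at 58.8, 52.6 and 64.8 FPKM in PGRN KO. The groups were apart, with a log2 fold change of 0.61 ± 0.11 (SE) and a limma adjusted p of 0.0117. It passed in 14 of 16 alternatives and not without WT replicate 1 or 3 (limma adjusted p 0.0598 and 0.0537). Plekhm1, 927.2 kb from Grn, whose product links Rab7 to the machinery for fusion with lysosomes, was at 19.9, 18.5 and 21.2 FPKM in WT and at 14.1, 14.7 and 13.3 FPKM in PGRN KO. All PGRN KO libraries were lower than all WT libraries, with a log2 fold change of -0.47 ± 0.09 (SE) and a limma adjusted p of 0.0123. Its call was lost on a TPM scale (0.0911) and without WT replicate 1 or 3 (0.0692 and 0.0612).

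The other genes of this list did not pass over all 6 libraries. Atp6v0a1, a subunit of the proton pump that acidifies lysosomes, was at 8.07 ± 1.00 FPKM in WT and at 10.3 ± 0.565 FPKM in PGRN KO (SD, n = 3 each), and its limma adjusted p of 0.0712 became 0.0304 without PGRN KO replicate 6. Nbr1, a receptor that brings ubiquitinated cargo to autophagosomes, was at 12.1 ± 0.435 and 10.1 ± 1.27 FPKM (limma adjusted p 0.132). Gosr2, a SNARE of the Golgi, was at 29.8 ± 1.61 and 25.2 ± 0.537 FPKM, and its limma adjusted p of 0.0827 became 0.0319 without replicate 6. The groups of these 3 genes did not overlap. Becn1, a core subunit of the lipid kinase that starts autophagy, was at 5.78 ± 0.374 and 6.18 ± 1.19 FPKM, and 43.93% of its exon bases overlap other genes. Nsf, the ATPase that takes SNARE complexes apart, was at 5.42 ± 0.313 and 5.11 ± 0.378 FPKM. Vps25, an ESCRT subunit, was at or below 0.124 FPKM, and 67.17% of its exon bases are shared, mainly with Ramp2, so that its level is uncertain.

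Genes of mitochondria and metabolism formed a list of 12, of which 7 were tested, 3 were higher (Slc25a39, Dcakd and G6pc3) and 0 were lower, beside 10.4% higher and 13.8% lower among all genes tested. Their median log2 fold change was 0.50, beside -0.031 for all genes tested. Dcakd, 557.0 kb from Grn, is named for a domain of dephospho-CoA kinases. It was at 4.93, 4.71 and 5.12 FPKM in WT and at 9.33, 7.71 and 10.7 FPKM in PGRN KO, with separate groups. The log2 fold change was 0.78 ± 0.12 (SE, limma adjusted p 0.00666), and it passed in 16 of 16 alternatives. G6pc3, 236.2 kb from Grn, encodes the widely expressed glucose-6-phosphatase on which neutrophils depend. It was at 3.30, 4.04 and 3.21 FPKM in WT and at 4.54, 5.48 and 7.64 FPKM in PGRN KO. Its groups did not overlap, replicate 6 was the highest, and the log2 fold change of 0.59 ± 0.17 (SE) had a limma adjusted p of 0.0484, close to the threshold. The call was lost without WT replicate 1, 2 or 3 (0.151, 0.0914 and 0.146), without PGRN KO replicate 5 (0.0858) and without a filter (0.128).

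The other 4 tested genes of this list did not pass. Coasy, which carries out the last steps of coenzyme A synthesis, was at 1.01 ± 0.161 and 1.22 ± 0.133 FPKM in WT and PGRN KO (SD, n = 3 each). Acbd4, named for its acyl-CoA binding domain, was at 0.857 ± 0.330 and 1.63 ± 0.405 FPKM, with a log2 fold change of 0.50 at a limma adjusted p of 0.0763 and overlapping groups. Coa3, an assembly factor of cytochrome c oxidase, was at 9.04, 9.08 and 10.2 FPKM in WT and at 10.6, 10.9 and 16.8 FPKM in PGRN KO. Replicate 6 stood far above the others, and the log2 fold change was 0.37 with it and 0.17 without it. Nmt1, the N-myristoyltransferase, was at 16.1 ± 0.959 and 15.4 ± 1.08 FPKM, with a 95% interval of the log2 fold change from -0.28 to 0.16.

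Regulators of transcription and chromatin formed a list of 12, of which 8 were tested. Ubtf was higher and Kansl1 was lower, beside 10.4% higher and 13.8% lower among all genes tested. Kansl1 encodes the scaffold of a histone acetyltransferase complex and lies near the far edge of the stretch, 1896.2 kb from Grn. It was at 14.3, 15.2 and 13.4 FPKM in WT and at 8.45, 9.13 and 5.53 FPKM in PGRN KO. All PGRN KO libraries were lower than all WT libraries, and replicate 6 was the lowest. The log2 fold change was -0.84 ± 0.17 (SE, limma adjusted p 0.0153), and the mean was 0.539 times that of WT. It passed in 12 of 16 alternatives, with a log2 fold change of -0.96 to -0.61, and not without WT replicate 1, 2 or 3 (limma adjusted p 0.0638, 0.0683 and 0.0523) or without a filter (0.0505).

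Mlx, a partner of glucose-responsive transcription factors, with the motif in capitals above, was at 11.6 ± 0.525 FPKM in WT and at 9.55 ± 0.826 FPKM in PGRN KO (SD, n = 3 each), with a log2 fold change of -0.26 at a limma adjusted p of 0.0865. Hdac5, a histone deacetylase, was at 3.65 ± 0.251 and 2.85 ± 0.492 FPKM, and its limma adjusted p of 0.124 became 0.0155 without PGRN KO replicate 6. Both had groups that did not overlap. Ezh1, a methyltransferase of histone H3, was at 3.64 ± 0.160 and 4.15 ± 0.548 FPKM, and Hexim1, an inhibitor of the elongation factor P-TEFb, at 3.38 ± 0.272 and 2.96 ± 0.584 FPKM. Their groups overlapped, and without replicate 6 the log2 fold changes were 0.23 and -0.27 (limma adjusted p 0.0334 and 0.0397).

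Of 13 genes listed for immunity and signalling, 5 were tested and 1 passed, beside 24.2% of all genes tested. Dusp3, a phosphatase that acts on MAP kinases, lies 443.3 kb from Grn and was at 28.6, 27.3 and 29.0 FPKM in WT and at 21, 24.3 and 22.4 FPKM in PGRN KO. The groups did not overlap, with a log2 fold change of -0.32 ± 0.09 (SE) and a limma adjusted p of 0.0411. It passed in 9 of 16 alternatives. The call was lost on a TPM scale (limma adjusted p 0.205), after quantile normalization (0.095), without a filter (0.0641), without WT replicate 1, 2 or 3 (0.163, 0.114 and 0.14) and without PGRN KO replicate 4 (0.113). A share of 12.9% of its exon bases overlaps other genes.

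Ifi35, an interferon-induced gene, was at 36.6, 44.5 and 35.6 FPKM in WT and at 61.1, 46.2 and 96.8 FPKM in PGRN KO. The groups did not overlap, but the PGRN KO libraries were spread from just above WT in replicate 5 to far above it in replicate 6. The log2 fold change of 0.73 ± 0.25 (SE) did not pass (limma adjusted p 0.0782), and it was 0.45 without replicate 6 and 0.97 without replicate 5. Psme3, which encodes a nuclear activator of the proteasome, was at 23.5 ± 1.02 and 19.6 ± 1.87 FPKM in WT and PGRN KO (SD, n = 3 each; limma adjusted p 0.102). Map3k14, the kinase of the noncanonical NF-kB pathway, was at 1.75 ± 0.0516 and 1.39 ± 0.104 FPKM (limma adjusted p 0.139), and neither gene had overlapping groups. Rnd2 was at 2.65 ± 0.335 and 2.29 ± 0.694 FPKM, with overlapping groups.

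None of the 5 tested genes for RNA processing and translation, Gpatch8 among them, passed by limma at an adjusted p under 0.05 over all 6 libraries. Nor did the 2 for the cytoskeleton, and 24.2% of all genes tested passed. Rpl27 was at 125, 134 and 146 FPKM in WT and at 133, 136 and 232 FPKM in PGRN KO. Its level in replicates 4 and 5 lay within the WT range and that in replicate 6 far above it, and the log2 fold change was 0.25 with replicate 6 and -0.01 without it. A share of 24.77% of the 31-base words of Rpl27 also occurs in transcripts of other genes, so that its level is uncertain. Dhx8, a helicase of splicing, was at 8.69 ± 0.424 and 7.33 ± 0.230 FPKM in WT and PGRN KO (SD, n = 3 each; limma adjusted p 0.0971, and 0.0463 without replicate 6). Eftud2, a GTPase of the spliceosome, was at 2.70 ± 0.383 and 3.57 ± 0.435 FPKM (limma adjusted p 0.104). Lsm12, of the Sm-like family of RNA-binding proteins, was at 11.7 ± 0.698 and 12.5 ± 2.22 FPKM. Tubg1, the gamma-tubulin that nucleates microtubules, was at 1.55 ± 0.178 and 1.95 ± 0.576 FPKM, and Fmnl1, a formin that assembles actin, at 9.49 ± 1.2 and 11.5 ± 0.672 FPKM.

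The remaining 8 tested genes were on none of these lists, and none passed over all 6 libraries, beside 24.2% of all genes tested. Vat1 had the highest level of all neighbours, at 315, 319.6 and 326 FPKM in WT and at 295, 304 and 376 FPKM in PGRN KO. Its level in replicates 4 and 5 was below WT and that in replicate 6 above it, and the log2 fold change of 0.01 (95% interval -0.27 to 0.29) was -0.10 without replicate 6. Retreg3, a receptor for autophagy of the endoplasmic reticulum, was at 15.4 ± 0.511 and 12.7 ± 0.530 FPKM in WT and PGRN KO (SD, n = 3 each), with a limma adjusted p of 0.06 that became 0.0131 without replicate 6. Rundc1 was at 11.9 ± 0.985 and 9.67 ± 0.178 FPKM (limma adjusted p 0.0658, and 0.0372 without replicate 6). Tmem101 and Rdm1 had separate groups, with log2 fold changes of 0.25 and 0.42, neither of which passed limma (adjusted p 0.0909 and 0.186). For Rdm1, counted with 30, 30 and 66 fragments in replicates 4, 5 and 6, the log2 fold change was 0.17 without replicate 6. Ccdc43, Tmub2 and Arf2 had overlapping groups and log2 fold changes of -0.07, 0.05 and -0.07.

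**Figure D3:**
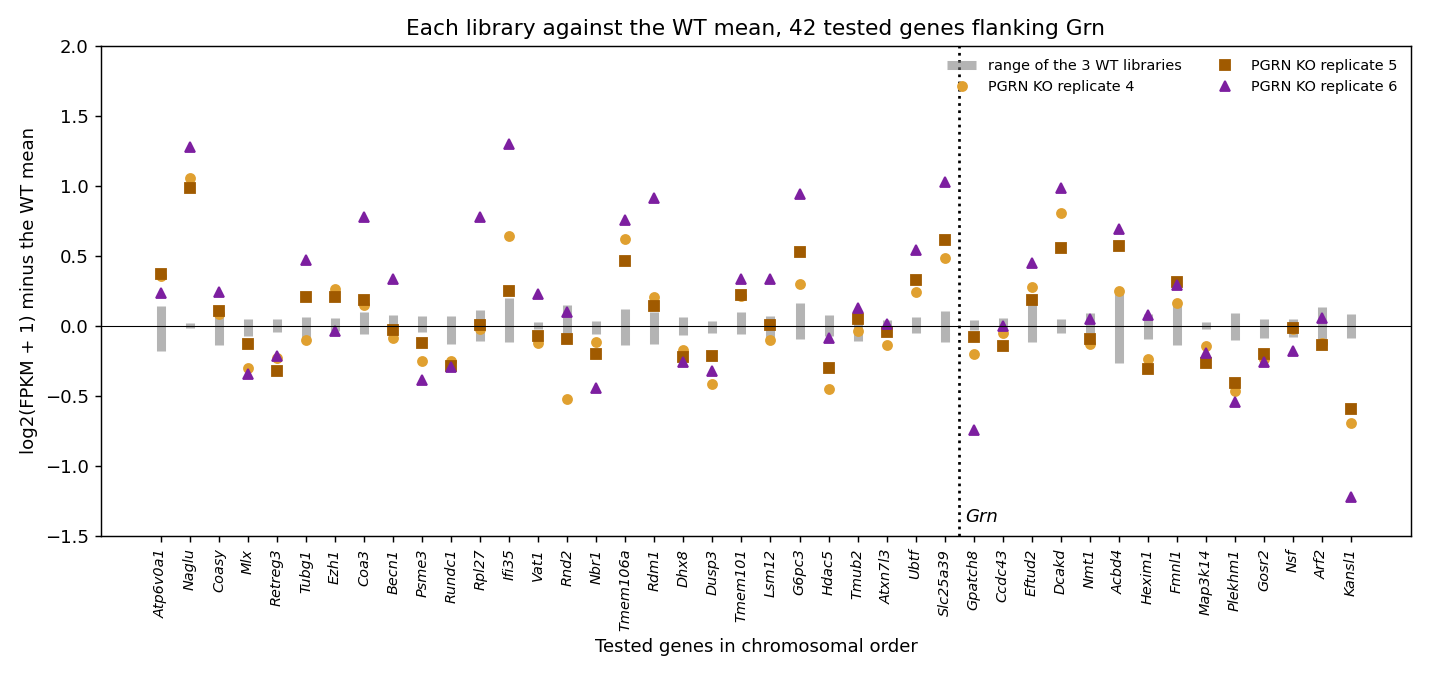
For the 42 tested neighbours in chromosomal order, each PGRN KO library is plotted as log2(FPKM + 1) minus the WT mean, beside the range of the 3 WT libraries. Replicate 6 is the highest or lowest of all 6 libraries for 29 genes, as for Rpl27, Coa3 and Gpatch8.

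Distance to Grn, measured between gene bodies, was considered next. Of 9 tested genes within 0.25 Mb, 3 passed, all higher in PGRN KO (Slc25a39, Ubtf and G6pc3). Between 0.25 and 0.5 Mb, 1 of 3 passed (Dusp3, lower). Between 0.5 and 1 Mb, 3 of 16 passed (Tmem106a and Dcakd higher, Plekhm1 lower), and farther away 2 of 14 passed (Naglu higher, Kansl1 lower). Within 0.5 Mb this is 4 of 12 (33.3%) and beyond it 5 of 30 (16.7%), on either side of the 24.2% of all genes tested. The 3 calls with the highest adjusted p of the 9 (Dusp3, Ubtf and G6pc3) all lie within 0.5 Mb. There, 2 calls were left on a TPM scale, after quantile normalization and without PGRN KO replicate 4 or 5, and 0 without a filter or without any 1 of the WT libraries. The share within 0.5 Mb was not tested against that beyond it.

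The size of the difference showed no order with distance. The median absolute log2 fold change was 0.281 within 0.25 Mb, 0.304 between 0.25 and 0.5 Mb, 0.255 between 0.5 and 1 Mb and 0.243 beyond 1 Mb, beside 0.251 over all genes tested. Across the 42 genes, which share the same 6 libraries, the Spearman correlation of the absolute log2 fold change with distance was -0.03 and Pearson's r was 0.09. The largest rise (Naglu) and the largest fall (Kansl1) both lay more than 1 Mb from Grn, on opposite sides of it. Among the 10 tested genes nearest to Grn 3 passed (30%), and among the other 32 genes 6 passed (18.8%). The share of all genes tested was 24.2%, and this contrast was not tested.

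**Figure D4:**
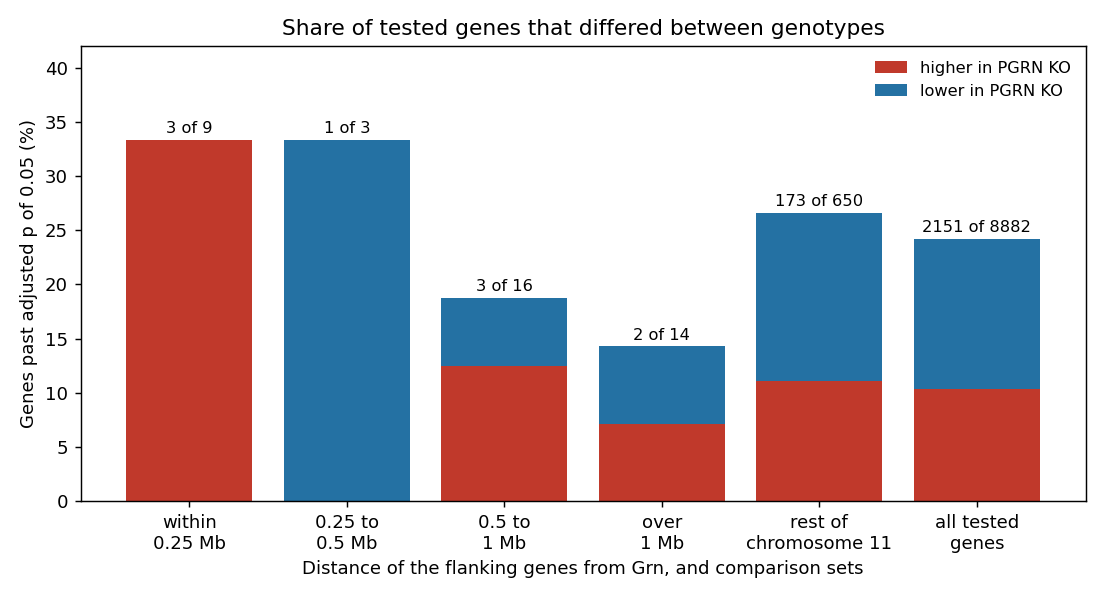
The percentage of tested genes past an adjusted p of 0.05 is plotted by distance from Grn, split into higher and lower in PGRN KO, beside the rest of chromosome 11 and all genes tested. The bars within 0.5 Mb rest on 9 and 3 genes, and those of the rest of chromosome 11 and of all genes on 650 and 8882.

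The sides of Grn had the same share of calls, with 6 of 28 tested genes at lower coordinates (21.4%) and 3 of 14 at higher coordinates (21.4%). Both were near the 24.2% of all genes tested. Fold changes were positive for 18 of the 28 and for 4 of the 14, with median log2 fold changes of 0.11 and -0.07. Over all genes tested they were positive for 4146 of 8882 (median -0.031), and over the rest of chromosome 11 for 314 of 650 (median -0.025). Without PGRN KO replicate 6, fold changes on the 2 sides were positive for 14 of 28 and 4 of 14, with medians of 0.0 and -0.12. The difference in sign between the sides was not tested.

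The signs of close neighbours were compared without a test and without a background share for pairs. In 7 of 8 pairs within 1 kb of each other and with both genes tested, the log2 fold changes had opposite signs, though in 0 of these pairs did both genes pass. Over all 42 tested neighbours, 22 fold changes were positive and 20 negative. Some signs rest on values near 0, as for Tmub2 (0.05) and Atxn7l3 (-0.06). Vat1, paired with both Ifi35 and Rnd2, turned from 0.01 to -0.10 without PGRN KO replicate 6. Dcakd and Nmt1 start head to head and overlap by 144 bases, and Dcakd was higher (0.78) with Nmt1 at -0.06. Tmem106a starts 290 bases after the end of Nbr1 on the same strand and was higher (0.61), with Nbr1 at -0.25. G6pc3 and Hdac5 end 350 bases apart, with 0.59 and -0.28. Ifi35 and Vat1, the pair with the same sign, end 46 bases apart, with 0.73 and 0.01. The sources used here do not say whether counting used strand, so reads of overlapping genes may not be told apart.

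Of the 39 genes with some fragments but a mean below 1 FPKM, 24 were below 0.1 FPKM, and none was tested. The highest were Plekhh3 at 0.661 to 1.38 FPKM in WT and at 0.678 to 0.782 FPKM in PGRN KO, Arhgap27 at 0.864 to 1.05 and 0.685 to 0.930 FPKM, and Aoc2 at 0.501 to 1.04 and 0.728 to 0.831 FPKM, all with overlapping groups. Ptges3l, named after its values were seen, was at 0.0851 to 0.289 FPKM in WT and at 0.466 to 1.02 FPKM in PGRN KO on 104 fragments in all. Its groups did not overlap, but 40.51% of its exon bases lie in other genes, so that its level is uncertain.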

How the data were processed

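RNA of 3 WT and 3 PGRN KO macrophage samples was sequenced, and the authors deposited a table of FPKM per gene. Per the labels' processing notes, CASAVA, HISAT2 2.0.5, featureCounts 1.5.0-p3 and DESeq2 1.20.0 were named with mm10 and GRCm38, whereas the study's methods name HISAT and HTSeq, and no source used here says whether counting used strand. FPKM times gene length came out as whole fragments for 100% of values (within 0.001 of a step), which gave the fragments quoted. FPKM depends on the gene length and library size used, so levels are relative within a library. The library size implied by the FPKM values was not the sum of the counted fragments. It was 0.925 to 1.03 times this sum in the WT libraries and 0.9995 to 1.09 times in the PGRN KO libraries. The part of this scaling in the calls was not tested by itself.

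Genes with a mean of at least 1 FPKM were tested with limma 3.58.1 (R 4.3.3, empirical Bayes with a trend) on log2(FPKM + 1), all 6 libraries, with Benjamini-Hochberg adjustment over all genes tested and a threshold of 0.05. A fold change on this scale understates the change of low genes. Intervals are 95% intervals. Genes were named by rule: the 5 nearest on each side of Grn, all past the threshold (the 5 largest in each direction in full), the lysosome and autophagy list, the 3 highest by mean FPKM and examples of the role lists. The other tested genes were added for completeness. The genes and lists were chosen with earlier results of these data known. The script was checked on simulated data, in which 200 genes were changed by a log2 value of 1. On average 85.8% of these genes were called, and 8.4% of calls were false, above the threshold of 0.05. The simulated data held no trend with gene length and no library like PGRN KO replicate 6. Alternatives changed the pseudocount (0.1), filter, scaling, weights, length correction, adjustment and libraries, and voom was run on the fragments. Exon overlaps came from GENCODE M21. Exon bases shared with other genes were also 26.93% for Eftud2, 23.06% for Arhgap27, 19.26% for Mlx, 16.79% for Ifi35 and 11.36% for Rnd2. Of the 31-base words, 19.19% for Tubg1 and 14.59% for Lsm12 also occur in transcripts of other genes. The levels of these genes carry the same limit.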

Additional observations from a re-analysis of the deposited data

How the results depend on the processing

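The numbers of neighbours called (9 of 42, 21.4%, with 6 higher and 3 lower) were the same in 3 alternatives. With a pseudocount of 0.1, 23.6% of all genes were called (10.3% higher, 13.3% lower). With voom on recovered fragments it was 25.5% (10.7% higher, 14.8% lower). With p-values adjusted over protein-coding genes only, 26% of these genes were called (11.1% higher, 14.8% lower). Without a filter on low values, 4 of 81 neighbours were called, 3 higher and 1 lower, with 0 within 0.5 Mb. With a mean of at least 5 FPKM, 8 of 28 neighbours were called (28.6%, beside 30.5% of all genes). Of these, 4 were higher (beside 10.9%) and 4 lower (beside 19.6%), with 2 within 0.5 Mb. After quantile normalization and on a TPM scale, 2 were also called within 0.5 Mb. On a TPM scale, 1 neighbour in all was called lower. Sample quality weights gave 22 calls, 12 higher and 10 lower, with 16 beyond 0.5 Mb. A loess correction for gene length gave 14 calls (33.3%, beside 31.7% of all genes), 5 of them lower and 10 beyond 0.5 Mb, and the same correction without PGRN KO replicate 6, chosen after seeing the data, gave 14 (33.3%, beside 41.3% of all genes), 5 of them lower and 9 beyond 0.5 Mb. Leaving out 1 library at a time gave 2 to 17 calls, 2 to 8 higher and 0 to 9 lower, with 0 to 5 within and 2 to 12 beyond 0.5 Mb. The cause was not tested. Of the log2 fold changes of single genes, 573 kept direction and side of the threshold, 35 newly passed, 33 no longer passed and 17 turned sign, none of these past the threshold. With quality weights, Becn1 turned to -0.015, Vat1 to -0.08, Lsm12 to -0.054 and Nsf to 0.01. With the length correction Vat1 was at -0.029, Tmub2 at -0.005 and Nsf at 0.057, and with that correction without replicate 6 Becn1 was at -0.024, Vat1 at -0.075, Lsm12 at -0.033 and Nsf at 0.023. Leaving out 1 library at a time gave ranges of -0.059 to 0.152 for Becn1, -0.006 to 0.392 for Rpl27, -0.096 to 0.079 for Vat1, -0.051 to 0.169 for Lsm12, -0.005 to 0.099 for Tmub2 and -0.306 to 0.005 for Rnd2. No paired analysis was possible because replicates are numbered 1 to 3 in WT and 4 to 6 in PGRN KO. Depth limits the genes of low level, and the lowest tested neighbour had a mean of 31.7 fragments per library.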

Other observations

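The same stretch of chromosome 11 holds 58 genes of other classes, such as long noncoding RNAs and pseudogenes, of which 39 were at 0 in all 6 libraries and 0 reached a mean of 1 FPKM. By chromosome, the share of tested genes past the threshold of limma ran from 14.7% on X to 28.5% on chromosome 17, with 25.1% on chromosome 11.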
